A study of Mus musculus with 89 samples.

Results

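Lungs of mice lacking surfactant protein D (SP-D-/-) were compared with lungs of C57BL/6 mice 168 h after a challenge with the mould allergen Af (Aspergillus fumigatus) through the nose, after exposure to air. The arrays were picked by sample title alone, though the comparison was chosen with earlier results of these data known. The comparison took in 9 of the 89 arrays of the series, 5 from SP-D-/- mice and 4 from C57BL/6 mice. It asks how lung RNA differed between the strains after allergen when no ozone was given, and all 15065 genes that could be tested were compared.

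Both groups were male, 7 to 8 weeks old, and given Af by injection into the abdomen on days 0 and 7, then Af into the nose on day 13. They breathed air for 2 h as the control for ozone and were killed 12 h after it. Total RNA of the left lung lobe, taken after the vessels had been rinsed with saline, was amplified with a NuGEN system and hybridized to HT Mouse430PM arrays. SP-D-/- is the strain label for mice without a working Sftpd gene. Which stretch of the gene is deleted, and on which background the line was kept, is not given in the sources used here.

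SP-D is a secreted lectin of the collectin family, made by alveolar type 2 cells and by club cells of the airways. It binds sugars on microbes, fungal spores included, and helps phagocytes to clear them, and it takes part in the turnover of surfactant lipid. Mice without it are known for surfactant lipid that builds up in the airspaces and for enlarged, lipid-filled alveolar macrophages.

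The deposited values are log2 signals that share the same median, 4.90, on every array, and a difference of 1 is a 2-fold difference in signal. Differences below are SP-D-/- minus C57BL/6 ± SE, and levels are mean ± SD over 5 and 4 arrays. The sample was lung by its defining markers. Sftpc of type 2 cells averaged 12.70 in SP-D-/- lungs and 12.67 in C57BL/6 lungs, and Ager of type 1 cells 11.96 and 11.94. Scgb1a1 of club cells averaged 13.08 in SP-D-/- lungs and 12.93 in C57BL/6 lungs, and Cdh5 of endothelium 6.90 and 7.02. Whole lobes were homogenized, so fewer cells of a type and less RNA per cell cannot be told apart.

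By the level of Sftpd and by strain markers, 0 of the 9 arrays and 5 of all 89 went against their labels. Of these 5, the library labelled SP-D-/- replicate 1 at Af 96 h with ozone had Sftpd at 10.94, a wild-type level, and the library labelled C57BL/6 replicate 1 at that exposure carried BALB/c strain markers. Values at Af 96 h with ozone are therefore also given without the doubted libraries. The group means then lack this pair, and the limma fit lacks all 5. The mean signal of 9 hybridization control probe sets was 10.6 to 11.9 on SP-D-/- arrays and 10.1 to 11.2 on C57BL/6 arrays. That difference of 0.60 gave p = 0.175 in a two-sided exact permutation test over the arrays, or 0.524 after adjustment over 3 technical measures, and this design cannot give less than 0.0159. The 3' minus 5' signal of beta-actin, which grows as RNA degrades, averaged 2.57 ± 0.67 in SP-D-/- and 2.58 ± 0.43 in C57BL/6. Only the replicate number in each title speaks for separate animals, so p-values measure the spread between arrays, which may be technical. In the main limma fit that spread was pooled over all 89 arrays in 18 groups, not over these 9 alone. The small number of arrays limits the precision.

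Only 3 of 15065 genes passed the test in this comparison (limma, adjusted p under 0.05), which is 0.0199% of those tested. Ctr9 rose in SP-D-/- lungs (0.00664% of genes), and Sftpd itself and the antibody gene segment Igkv14-111 fell (0.0133%). At an unadjusted p under 0.05 the test gave 594 genes, 3.94% of all, with 235 higher and 359 lower in SP-D-/-. The median difference over all genes was -0.00 and 49.9% of genes were higher in SP-D-/-. With every probe set fitted on its own, named or not, 7 of 36800 passed (0.019%). The groups did not overlap in 263 genes, 1.75% of all, of which 122 (0.81%) were higher and 141 (0.936%) lower in SP-D-/-.

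Sftpd, the disrupted gene, gave log2 signals of 7.23, 6.40, 6.99, 7.76 and 6.38 in the 5 SP-D-/- lungs and of 10.05, 11.15, 10.34 and 10.05 in the 4 C57BL/6 lungs. The groups lay far apart, with the highest SP-D-/- array more than 2 log2 units under the lowest C57BL/6 array. The mean was 6.95 ± 0.58 in SP-D-/- and 10.40 ± 0.52 in C57BL/6, a difference of -3.44 ± 0.58 or 10.9-fold (limma, adjusted p = 4.89e-04). This SE and p-value use a spread pooled over all arrays, the doubted ones included. Without the doubted arrays the SE of the Sftpd difference at Af 96 h with ozone was 0.32, against 0.53 with them. Signal in SP-D-/- lungs stayed above the level of 4.45 used as a filter on all 5 arrays. Its 1 probe set does not show which part of the transcript that signal comes from.

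Ctr9 encodes a subunit of the Paf1 complex, which travels with RNA polymerase II along genes and takes part in histone modification. Its log2 signals were 8.65, 9.52, 9.15, 8.82 and 7.82 in SP-D-/- lungs, against 6.28, 6.48, 6.32 and 6.32 in C57BL/6 lungs. Every SP-D-/- array was above every C57BL/6 array, and the C57BL/6 arrays hardly differed among themselves (8.79 ± 0.64 in SP-D-/- and 6.35 ± 0.09 in C57BL/6). The difference of 2.44 ± 0.30, or 5.43-fold, had an adjusted p of 5.10e-08 by limma, the smallest of all 15065 genes. It came from 1 of 4 probe sets for the gene. The other 3 averaged 5.72, 4.25 and 5.07 in SP-D-/- lungs and 5.67, 4.49 and 4.66 in C57BL/6 lungs, differences of 0.06, -0.25 and 0.41. With the mean of the 4 probe sets in place of the brightest, the difference was 0.67 with an adjusted p of 0.186 in limma. In a limma fit of the 9 arrays alone its adjusted p was 0.0542.

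The Ctr9 probe set was higher in SP-D-/- lungs under each of the other 5 exposures as well, and passed limma's test in each. The difference was 2.72 in air (adjusted p = 9.80e-12), 2.85 with ozone alone (2.17e-11), 2.21 at Af 24 h with air (4.14e-07), 1.44 at Af 96 h with ozone (6.96e-04) and 1.56 at Af 168 h with ozone (0.00177). Those arrays did not enter the group means at 168 h with air, but the spread behind these p-values was pooled over all 89 arrays. Mean levels ran from 8.30 to 9.02 in the 5 other SP-D-/- groups and from 5.91 to 7.18 in the 5 other C57BL/6 groups. BALB/c lungs at Af 168 h with air averaged 6.49 ± 0.18 over 6 arrays, near the C57BL/6 level. Without the doubted libraries the Af 96 h difference of Ctr9 was 1.76 (adjusted p = 6.40e-07).

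**Figure D1:**
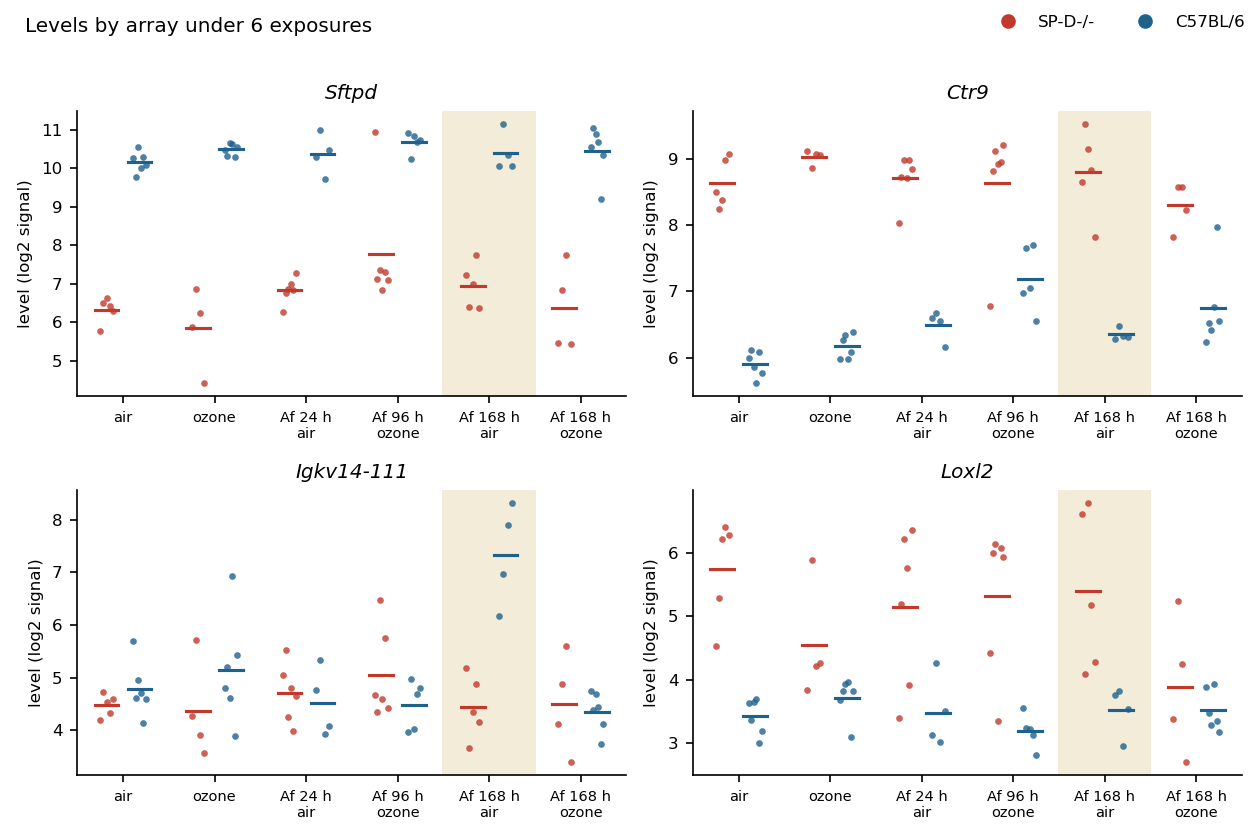
Log2 signal of Sftpd, Ctr9, Igkv14-111 and Loxl2 on each array under 6 exposures, SP-D-/- in red and C57BL/6 in blue, with a bar at each group mean and shading over Af 168 h with air. Sftpd and Ctr9 differ between the strains under every exposure, while Igkv14-111 is raised in C57BL/6 at Af 168 h with air and averages between 4.35 and 5.14 in every other group shown. The high SP-D-/- point for Sftpd at Af 96 h with ozone is 1 of the doubted libraries.

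Igkv14-111, a variable segment of the immunoglobulin kappa light chain, was low in SP-D-/- lungs and raised in C57BL/6 lungs. Its signals were 5.19, 3.65, 4.34, 4.88 and 4.16 in SP-D-/- and 6.17, 6.97, 7.90 and 8.32 in C57BL/6. The groups did not overlap, and the C57BL/6 arrays spread over more than 2 log2 units. The mean was 4.44 ± 0.60 in SP-D-/- and 7.34 ± 0.96 in C57BL/6, a difference of -2.90 ± 0.43 (limma, adjusted p = 2.02e-05). The SP-D-/- mean lies at the filter level of 4.45, so the size of this difference is approximate. Probe sets for antibody segments can also bind transcripts of close relatives.

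No strain difference of this kind appeared for Igkv14-111 under the other exposures. SP-D-/- minus C57BL/6 was -0.31 in air, -0.78 with ozone alone, 0.19 at Af 24 h with air, 0.56 at Af 96 h with ozone (0.50 without the doubted libraries) and 0.15 at Af 168 h with ozone, and limma passed none of them. The mean in BALB/c lungs at Af 168 h with air was 5.72 ± 0.53, between the 2 strains compared here. The test of the difference between strain differences gave -3.04 ± 0.60 for air against ozone at 168 h (limma, adjusted p = 0.00908). Against air alone it gave -2.59, which did not pass (adjusted p = 0.158). In a fit of the 9 arrays alone the 168 h difference itself did not pass (adjusted p = 0.250).

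Beyond these 3 genes, the rule for naming genes took the smallest p-values until 10 genes stood in each direction. The other 17 did not pass the test. Groups did not overlap in 6 of them, against 1.75% of all genes: Efcab10, Loxl2, Ang5 and Gfus above, and Fbp1 and Nfatc1 below. The 17 were picked by p-value from these same arrays, which favours genes without overlap. Of the 10 higher genes 4 belong to the goblet and mucus list, Tff2, Muc5b, Fcgbp and Agr2. Gfus, which makes GDP-fucose, and the tetraspanin gene Tspan1 belong to no list. The lower genes included 2 more kappa segments, Igk-V21 and Igkv1-135, and the macrophage-secreted protein gene Cd5l.

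**Figure D2:**
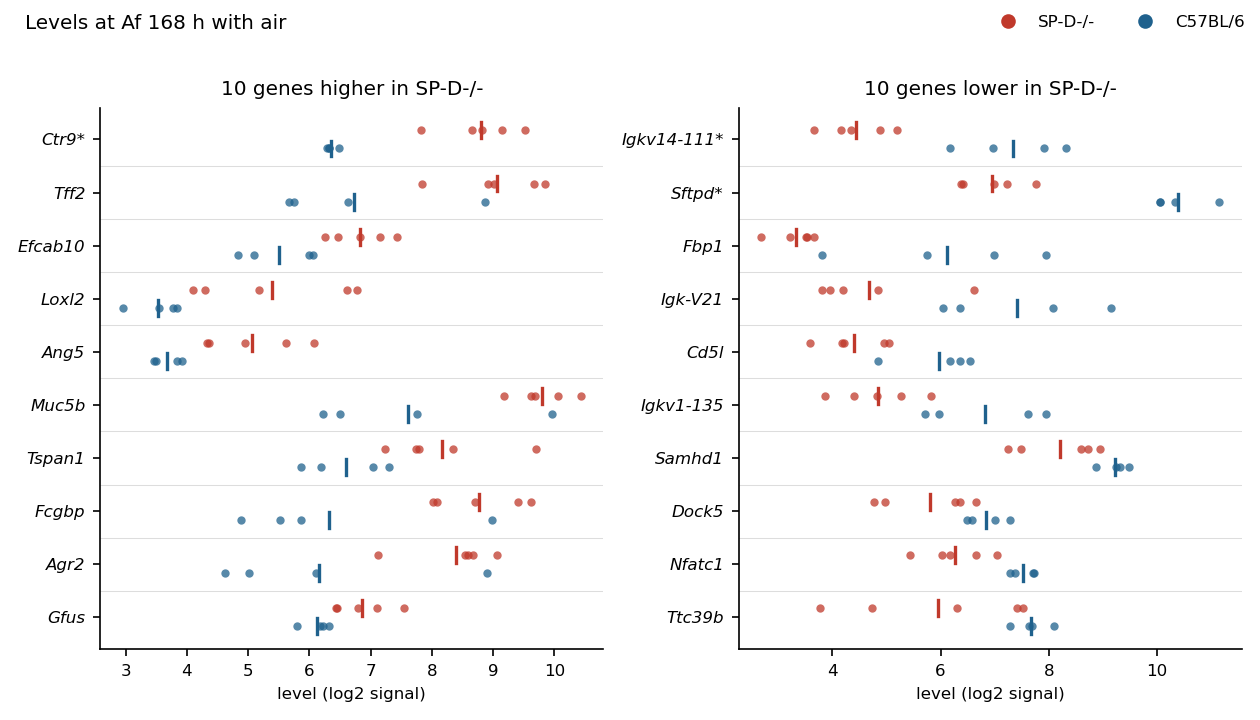
Log2 signal on each of the 9 arrays at Af 168 h with air for the 10 genes with the smallest p-values in each direction, SP-D-/- in red above C57BL/6 in blue, with ticks at group means and an asterisk at the 3 genes that passed. For Tff2, Muc5b, Fcgbp and Agr2, C57BL/6 replicate 4 lies among the SP-D-/- arrays and the other 3 C57BL/6 arrays lie lower.

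Mucus genes showed wide differences that did not pass the test. Tff2, a trefoil peptide secreted with mucins, had signals of 8.91, 9.02, 9.84, 7.84 and 9.67 in SP-D-/- lungs and of 6.63, 5.68, 8.86 and 5.75 in C57BL/6 lungs. All SP-D-/- arrays stood above 3 of the 4 C57BL/6 arrays, and C57BL/6 replicate 4 lay within the SP-D-/- range. The difference was 2.33 ± 0.53 (limma, adjusted p = 0.118). Muc5b, the main gel-forming mucin of resting mouse airways, gave 9.69, 10.05, 10.43, 9.17 and 9.61 in SP-D-/- lungs and 7.75, 6.23, 9.95 and 6.49 in C57BL/6 lungs. Again only C57BL/6 replicate 4 reached the SP-D-/- range, and the difference of 2.18 ± 0.57 did not pass (adjusted p = 0.290).

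Fcgbp, a mucin-binding protein, gave 8.71, 9.41, 9.62, 8.08 and 8.02 in SP-D-/- lungs and 5.52, 5.87, 8.98 and 4.89 in C57BL/6 lungs, a difference of 2.45 ± 0.67 (limma, adjusted p = 0.451). Agr2, a disulfide isomerase needed to fold mucins, gave 8.59, 8.67, 9.07, 7.12 and 8.53 in SP-D-/- lungs and 6.10, 4.62, 8.90 and 5.01 in C57BL/6 lungs. Its difference was 2.24 ± 0.63 (adjusted p = 0.597). Both genes repeated the pattern, with C57BL/6 replicate 4 inside the SP-D-/- range and the other C57BL/6 arrays below it.

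Of 19 goblet cell and mucus genes tested, 17 were higher and 2 lower in SP-D-/- lungs, with a median difference of 0.96 against -0.00 over all genes. None passed the test and none had groups that did not overlap. At an unadjusted p under 0.05, 8 were higher and 1 lower, against 1.56% and 2.38% of all genes. Clca1, which marks goblet cells, averaged 11.07 ± 0.85 in SP-D-/- lungs and 8.48 ± 2.12 in C57BL/6 lungs, and Muc5ac, the mucin of allergic airways, 6.28 ± 1.17 and 5.44 ± 1.68. Of the pair that were lower, the membrane-bound mucin Muc16 averaged 4.35 ± 1.08 in SP-D-/- and 6.30 ± 1.30 in C57BL/6, a difference of -1.96 ± 0.63.

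The mean over the 19 mucus genes was 7.36, 7.52, 7.90, 6.82 and 7.04 on SP-D-/- arrays and 6.01, 5.59, 7.94 and 5.67 on C57BL/6 arrays. C57BL/6 replicate 4 was therefore the highest of all 9 arrays, and the other 3 the lowest. Without that array the median difference of the list was 1.65. Without it, Tff2 (difference 3.04, adjusted p = 0.00135), Muc5b (2.97, 0.00600), Agr2 (3.15, 0.0117) and Fcgbp (3.34, 0.0124) passed limma's test, and 8 genes passed in all, 6 higher and 2 lower. That array was singled out by its values in these same genes, so these calls are no separate evidence. Over all fits that left out 1 array, the difference ran from 1.97 to 3.04 for Tff2 and from 1.72 to 2.97 for Muc5b. For Agr2 it ran from 1.72 to 3.15 and for Fcgbp from 1.98 to 3.34. The highest adjusted p in those limma fits was 0.999 for Tff2 and 0.9996 for Muc5b. C57BL/6 replicate 4 also had the highest C57BL/6 mean over motile cilia genes (7.46, against 5.77 to 6.79) and over genes of the heart muscle that sheathes pulmonary veins (9.70, against 5.52 to 7.88). In SP-D-/- lungs those means ran from 6.62 to 7.39 for cilia and from 6.09 to 8.12 for vein muscle. The part of the sampled airway and vessel in the mucus difference was not tested.

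Other airway lists pointed the same way with smaller differences. Of 15 club cell and secretoglobin genes, 14 were higher in SP-D-/- lungs, with a median of 0.31 and none passing. Scgb3a1, a secretoglobin of larger airways, gave 11.16, 11.12, 11.52, 10.14 and 12.08 in SP-D-/- lungs and 10.96, 7.95, 11.25 and 6.75 in C57BL/6 lungs. The groups overlapped, with C57BL/6 replicates 2 and 4 in the SP-D-/- range (difference 1.98 ± 0.65, limma adjusted p = 0.858). Of 19 motile cilia genes, 17 were higher in SP-D-/-, with a median of 0.48, or 0.80 without C57BL/6 replicate 4. Foxj1, the regulator of motile cilia, averaged 6.69 ± 0.46 in SP-D-/- lungs and 5.78 ± 0.90 in C57BL/6 lungs, and the cilium gene Spag6l 6.73 ± 0.65 and 5.73 ± 1.13. Gpx2, an epithelial glutathione peroxidase under NRF2 control, differed by 1.23 ± 0.37 (adjusted p = 0.783), and 14 of 20 NRF2 genes were higher with a median of 0.17.

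**Figure D3:**
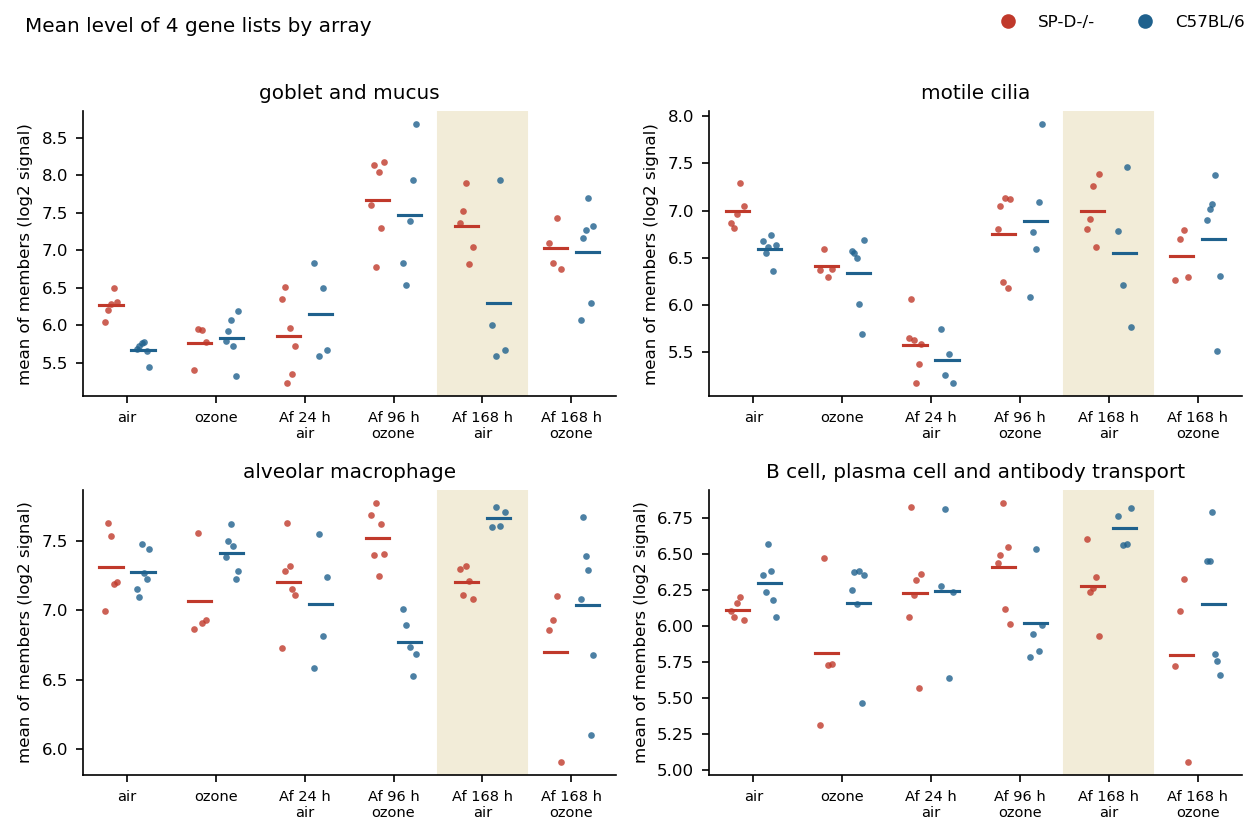
Mean log2 signal over the genes of 4 lists on each array under 6 exposures, SP-D-/- in red and C57BL/6 in blue, with bars at group means and shading over Af 168 h with air. At that time the mucus mean of C57BL/6 replicate 4 (7.94) stands with SP-D-/-, and the alveolar macrophage means of 7.08 to 7.32 in SP-D-/- and 7.60 to 7.74 in C57BL/6 do not overlap.

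Under the other exposures the mucus list had median strain differences of 0.47 in air, 0.01 with ozone alone, -0.22 at Af 24 h with air, 0.13 at Af 96 h with ozone (0.16 without the doubted libraries) and 0.04 at Af 168 h with ozone. At 168 h with ozone the list mean was 7.03 ± 0.31 in 4 SP-D-/- lungs and 6.98 ± 0.64 in 6 C57BL/6 lungs. The corresponding means with air at 168 h were 7.33 ± 0.42 and 6.30 ± 1.11. For Tff2 the change in the strain difference was 1.58 ± 0.71 against air alone (limma, adjusted p = 0.999) and 2.22 against Af 168 h with ozone (adjusted p = 0.530). Neither test passed, so a mucus difference particular to 168 h with air was not shown.

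Antibody genes pointed the other way. Igk-V21, a further kappa segment, gave 6.62, 3.81, 4.84, 4.19 and 3.95 in SP-D-/- lungs, against 6.36, 6.05, 9.16 and 8.07 in C57BL/6 lungs, with SP-D-/- replicate 2 among the C57BL/6 values (difference -2.73 ± 0.66, limma adjusted p = 0.189). Igkv1-135 gave 5.83, 3.86, 4.82, 5.26 and 4.40 in SP-D-/- lungs, against 5.70, 5.96, 7.62 and 7.96 in C57BL/6 lungs, with SP-D-/- replicate 2 again overlapping (-1.98 ± 0.51, adjusted p = 0.290). For all 3 segments the same pair of C57BL/6 arrays, replicates 4 and 6, was highest. At Af 168 h with ozone the strain differences were -0.03 for Igk-V21 and 0.30 for Igkv1-135.

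Of 14 genes of B cells, plasma cells and antibody transport, 12 were lower in SP-D-/- lungs, with a median of -0.32 and none passing. Pou2af1, a coactivator of antibody genes in B cells, gave 7.15, 6.54, 6.24, 5.26 and 4.21 in SP-D-/- lungs and 7.79, 7.15, 6.79 and 8.70 in C57BL/6 lungs, with SP-D-/- replicate 2 among the C57BL/6 values (-1.73 ± 0.54, adjusted p = 0.858 in limma). Jchain, which links IgA and IgM, averaged 8.69 ± 1.29 in SP-D-/- and 10.14 ± 1.49 in C57BL/6. The B cell surface gene Ms4a1 averaged 6.00 ± 1.14 in SP-D-/- and 7.14 ± 0.71 in C57BL/6, while Cd79a, of the B cell receptor, was close in both at 7.26 ± 0.12 and 7.44 ± 0.12. Pigr, the epithelial receptor that carries IgA into the airway, was 1 of the 2 higher members, with 8.04, 8.80, 8.82, 8.83 and 8.80 in SP-D-/- lungs and 7.47, 7.01, 8.68 and 5.88 in C57BL/6 lungs (1.40 ± 0.47, adjusted p = 0.868). Its C57BL/6 array within the SP-D-/- range was replicate 4, as for the mucus genes. Elsewhere the median of the B cell and antibody list was -0.38 in air, -0.46 with ozone alone and -0.21 at Af 24 h with air. At Af 168 h with ozone it was -0.48, and at Af 96 h with ozone 0.56, or 0.48 without the doubted libraries. A negative median for this list was thus not particular to 168 h with air.

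Macrophage genes were lower in SP-D-/- lungs in most cases, each by a modest amount and without a gene that passed. Of 14 alveolar macrophage genes 11 were lower, with a median of -0.47. The mean over the list was 7.30, 7.11, 7.32, 7.21 and 7.08 on SP-D-/- arrays and 7.60, 7.74, 7.61 and 7.71 on C57BL/6 arrays. These means did not overlap, which held for 1 of the 41 lists, while no member of the list had groups that did not overlap on its own. Itgax, the CD11c integrin of alveolar macrophages, averaged 7.26 ± 1.03 in SP-D-/- and 8.31 ± 0.85 in C57BL/6, and Chil3, a chitinase-like protein, 11.29 ± 0.63 and 11.95 ± 0.49. The scavenger receptor Marco averaged 5.52 ± 0.41 in SP-D-/- and 5.88 ± 0.64 in C57BL/6, and the chemokine Ccl6 10.37 ± 0.09 and 10.92 ± 0.45.

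The macrophage list did not keep this direction under every exposure. Its median strain difference was 0.06 in air, -0.17 with ozone alone, 0.18 at Af 24 h with air, 0.68 at Af 96 h with ozone and -0.33 at Af 168 h with ozone. At Af 96 h with ozone its means did not overlap in the opposite direction, with 7.24 to 7.77 in SP-D-/- and 6.52 to 7.01 in C57BL/6. Without the doubted libraries the Af 96 h median was 0.63, and the means of 5 SP-D-/- and 4 C57BL/6 arrays ran from 7.24 to 7.77 and from 6.52 to 6.89.

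Related lists had the same sign at 168 h with air. Genes of lipid-laden macrophages and lysosomes were lower in 18 of 22 cases with a median of -0.30, and 2 had groups that did not overlap, against 0.936% of all genes. Without C57BL/6 replicate 4 the median was -0.16 with 8 of 22 higher, and it ran from -0.50 to -0.15 on leaving out 1 array, -0.50 without C57BL/6 replicate 2 and -0.15 without SP-D-/- replicate 6. With the hybridization control level as a covariate it was -0.12. Npc1, a cholesterol exporter of lysosomes, averaged 6.57 ± 0.17 in SP-D-/- and 7.05 ± 0.11 in C57BL/6 (-0.48 ± 0.27, limma adjusted p = 0.995), and Abcg1, which exports cholesterol from macrophages, 8.34 ± 0.14 and 8.96 ± 0.25 (-0.62 ± 0.43). Monocyte genes were lower in 10 of 12 cases with a median of -0.42. Of 17 genes of alternatively activated macrophages 13 were lower with a median of -0.20, which ran from -0.41 to 0.08 over the alternatives. Among them Arg1, the arginase of type 2 inflammation, averaged 5.41 ± 0.90 in SP-D-/- and 6.84 ± 0.57 in C57BL/6, while Retnla, a secreted product of such cells, averaged 12.85 ± 0.26 and 12.26 ± 0.85.

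The macrophage and monocyte means were lowest on SP-D-/- replicates 3 and 6, the arrays with the highest hybridization control signal (11.60 and 11.93), and the part of array signal in them was not tested. Cd5l gave 3.59, 4.95, 4.21, 5.05 and 4.18 in SP-D-/- lungs and 6.37, 6.17, 6.54 and 4.83 in C57BL/6 lungs, with C57BL/6 replicate 6 inside the SP-D-/- range (-1.58 ± 0.40, limma adjusted p = 0.290). Samhd1, a nucleotide hydrolase that limits viruses in myeloid cells, differed by -1.02 ± 0.27 (adjusted p = 0.376), and its other probe set by -1.05. Nfatc1, a calcium-regulated transcription factor, gave 6.65, 6.18, 7.05, 6.03 and 5.43 in SP-D-/- and 7.72, 7.71, 7.28 and 7.37 in C57BL/6 (-1.25 ± 0.36, adjusted p = 0.597). The groups did not overlap for Nfatc1, but its other 4 probe sets differed by between -0.84 and 0.06.

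Interferon-stimulated genes were lower in SP-D-/- lungs in 20 of 23 cases, with a median of -0.33. Ifit2 averaged 4.45 ± 0.79 in SP-D-/- and 5.57 ± 0.78 in C57BL/6, and Zbp1, a sensor of nucleic acids, 5.49 ± 0.28 and 6.03 ± 0.55. NK cell genes were lower in 12 of 14 cases with a median of -0.21, among them the receptors Klrd1 (4.47 ± 1.01 in SP-D-/- and 5.54 ± 0.83 in C57BL/6) and Klra8 (5.29 ± 1.33 and 6.57 ± 0.47). Among 18 genes of fungal and pattern recognition 12 were lower with a median of -0.32. Fcer1g, the signalling chain shared by Fc receptors and fungal lectin receptors, averaged 8.68 ± 0.38 in SP-D-/- and 9.35 ± 0.17 in C57BL/6, without overlap (-0.67 ± 0.31, limma adjusted p = 0.995). None of these genes passed the test. The interferon median was -0.17 in air, -0.86 with ozone alone, 0.09 at Af 24 h with air and -0.31 at Af 168 h with ozone. At Af 96 h with ozone it was 0.29, or 0.35 without the doubted libraries. In the same order of exposures the NK median was -0.32, -0.12, -0.23 and -0.25, then 0.11 at Af 96 h, or -0.01 without the doubted libraries. Neither list was thus lower only at 168 h with air.

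No gene of the type 2 cytokine axis passed the test. Of 13 genes of the type 2 cytokine axis 7 were higher and 6 lower, with a median of 0.05, or -0.02 without C57BL/6 replicate 4. The cytokine Il13 averaged 4.33 ± 0.20 in SP-D-/- and 4.47 ± 0.17 in C57BL/6, both near the filter level, and Il4 lay under it on all 9 arrays. The eosinophil markers Prg2, Epx and Ccr3 were also under that level on all 9 arrays, and the 6 eosinophil genes tested, Epx and Ccr3 among them, had a median of -0.31, or -0.12 without that array. Neutrophil genes (median 0.08), T cell genes (0.05) and dendritic cell genes (0.05) were close to all genes together, and without that array were -0.15, -0.03 and 0.02. Hdc, which makes histamine in mast cells and basophils, was 1 of 2 higher members among 8 mast cell genes, with 9.65, 9.18, 9.96, 10.05 and 9.66 in SP-D-/- and 8.18, 8.60, 9.21 and 7.91 in C57BL/6 (1.22 ± 0.43, limma adjusted p = 0.942). Only C57BL/6 replicate 4 reached the SP-D-/- values of Hdc, by a narrow margin. The mast cell and basophil genes Cpa3, Mcpt1, Mcpt2, Mcpt4, Tpsab1, Fcer1a and Ms4a2 lay under the filter level on all 9 arrays. Which cells gave the Hdc signal was not tested.

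**Figure D4:**
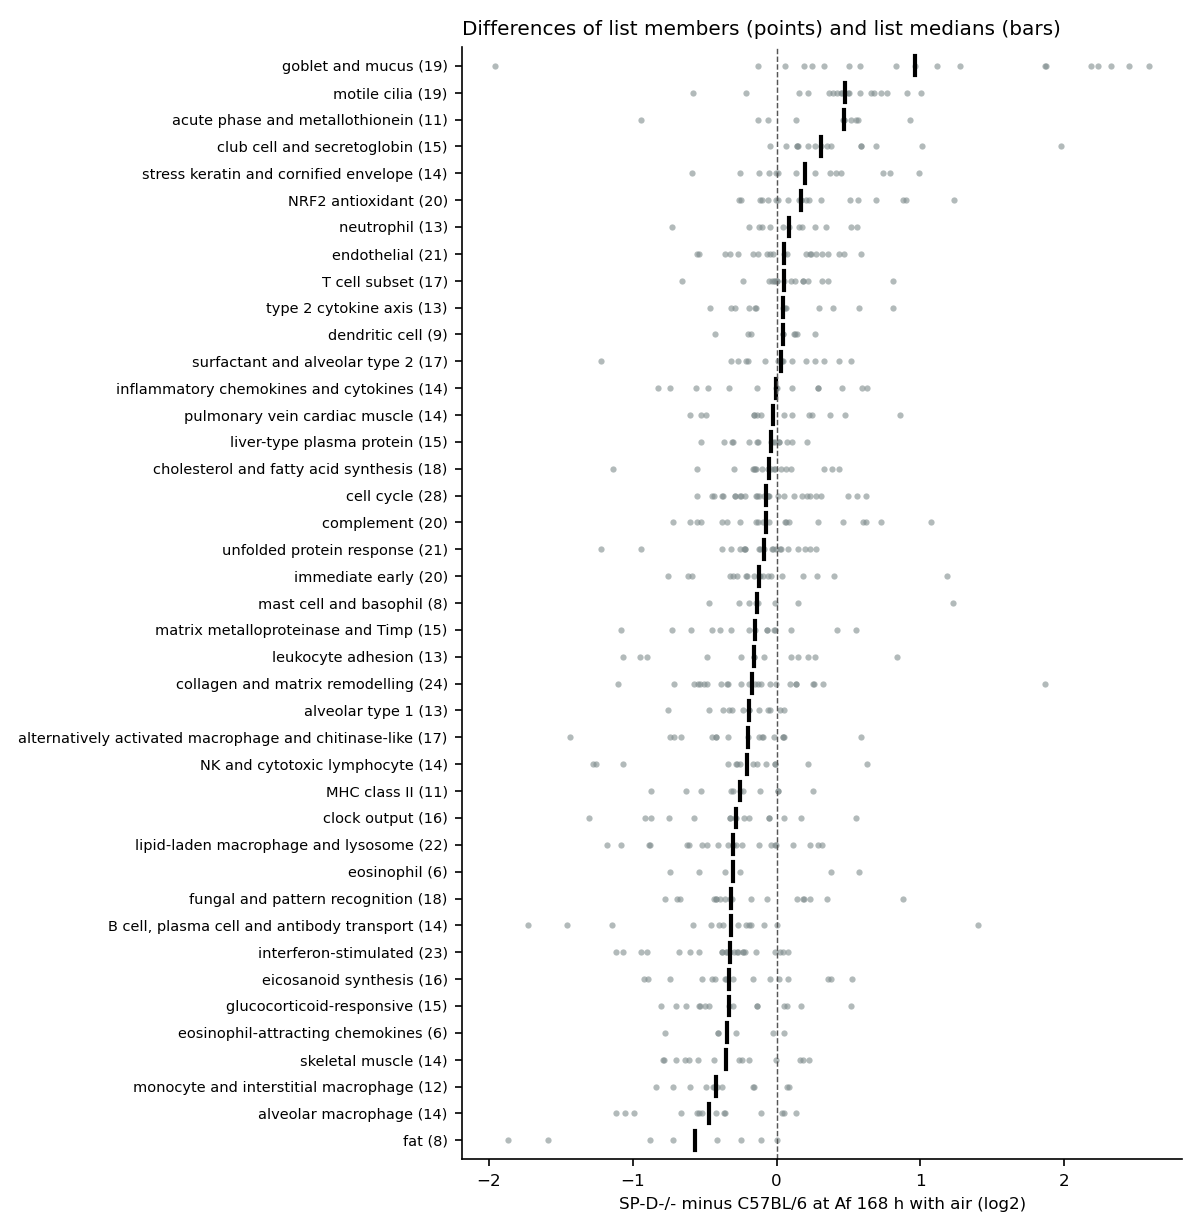
Differences of SP-D-/- minus C57BL/6 at Af 168 h with air (log2) for the members of 41 gene lists, with points for genes, bars for list medians and the number of genes tested in brackets. Goblet and mucus genes have the highest median (0.96) and fat genes the lowest (-0.57), a rank that rests on C57BL/6 replicate 4, without which the fat median is -0.22 and the alveolar macrophage median -0.49. No member of any list passed the test.

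Of 17 surfactant and type 2 cell genes other than Sftpd, 11 were higher in SP-D-/- and none passed, with a median of 0.03, or -0.02 without C57BL/6 replicate 4. Sftpa1, the gene of the related collectin SP-A, was lowest among them by difference. It gave 11.42, 11.03, 11.43, 11.38 and 11.00 in SP-D-/- lungs and 12.71, 13.20, 11.96 and 12.01 in C57BL/6 lungs. The groups did not overlap, and the difference of -1.22 ± 0.44 did not pass (limma, adjusted p = 0.995). Under the other exposures the Sftpa1 difference was -1.26 in air, -1.68 with ozone alone (limma, adjusted p = 0.0331) and -0.84 at Af 24 h. It was -0.24 at Af 96 h with ozone (-0.39 without the doubted libraries) and -2.28 at Af 168 h with ozone (0.00177). The difference was thus negative under all 6 exposures.

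Sftpa1 lies 3 genes from Sftpd in the RefSeq gene order. Of the 40 genes nearest to Sftpd, 10 were on the array with a name and 9 were tested. None was called, 4 were higher and 5 lower, and the median was -0.29. Besides Sftpa1 only Dydc2, 6 places away, had groups that did not overlap (6.28 ± 0.45 in SP-D-/- and 5.39 ± 0.28 in C57BL/6), 2 of 9 against 1.75% of all genes. Mbl1, the mannose-binding lectin gene beside Sftpd, differed by -0.29 and lay near the filter level.

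Loxl2, an enzyme that cross-links collagen, is on the same chromosome but 1030 genes away. Its signals were 6.61, 4.10, 6.78, 5.19 and 4.29 in SP-D-/- lungs and 3.77, 3.83, 2.96 and 3.54 in C57BL/6 lungs, where every array was under the filter level. The groups did not overlap, and the SP-D-/- arrays were split, with replicates 2 and 4 highest. The difference was 1.87 ± 0.46 (limma, adjusted p = 0.195) and passed with the hybridization control level as a covariate (2.28, adjusted p = 4.31e-05). Loxl2 was also higher in SP-D-/- in air (2.32, adjusted p = 9.44e-04) and at Af 96 h with ozone (2.13, 0.00106, or 2.40 without the doubted libraries), with smaller differences of 0.83, 1.67 and 0.38 under the remaining exposures.

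Ang5, an angiogenin-family ribonuclease, had a similar difference under every exposure. It gave 4.95, 4.37, 6.08, 4.33 and 5.62 in SP-D-/- and 3.92, 3.47, 3.85 and 3.49 in C57BL/6 at 168 h with air (1.39 ± 0.35, limma adjusted p = 0.286). The groups did not overlap, but only 3 of the 9 arrays, all SP-D-/-, were above the filter level. Elsewhere the Ang5 difference ran from 1.05 to 1.52 and passed with ozone alone (adjusted p = 0.0395), at Af 96 h with ozone (0.00188, or a difference of 1.92 without the doubted libraries) and at Af 168 h with ozone (0.0361). Of the 24 collagen and matrix genes tested, Loxl2 among them, 17 were lower in SP-D-/-, with a median of -0.17, or -0.42 without C57BL/6 replicate 4.

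The remaining lists held few wide differences and no gene that passed. Pdia4, a disulfide isomerase of the endoplasmic reticulum, was lower without overlap, at 4.76 ± 0.27 in SP-D-/- and 5.70 ± 0.11 in C57BL/6 (-0.95 ± 0.29, limma adjusted p = 0.783), while its list of 21 unfolded protein response genes had a median of -0.09. Cd59a, which shields cells from complement, was higher without overlap, at 8.26 ± 0.32 in SP-D-/- and 7.18 ± 0.54 in C57BL/6, and 20 complement genes had a median of -0.07. The integrin Itga4 was lower without overlap, at 6.49 ± 0.61 and 7.56 ± 0.30, but its other probe sets differed by between -0.60 and 0.37. Medians were -0.29 for 16 clock genes, -0.26 for 11 MHC class II genes, -0.07 for 28 cell cycle genes and 0.05 for 21 endothelial genes. Without C57BL/6 replicate 4 those for complement, cell cycle and endothelial genes were -0.19, -0.16 and -0.23. Fat genes were lower in 7 of 8 cases, with a median of -0.57, and their mean ran from 4.69 to 5.49 in SP-D-/- and from 4.72 to 6.83 in C57BL/6, highest in C57BL/6 replicate 4, without which the median was -0.22.

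Whether the strain difference at 168 h after Af differed from that in mice given air alone was tested in the same limma fit. Of 15065 genes 1 passed, 0.00664% of those tested, and 308 (2.04%) had an unadjusted p under 0.05. That gene was Fbp1, the fructose bisphosphatase of gluconeogenesis, which macrophages also express. At 168 h its signals were 3.52, 3.21, 3.51, 3.66 and 2.69 in SP-D-/- lungs and 3.81, 6.99, 5.74 and 7.95 in C57BL/6 lungs, so that 3 of 4 C57BL/6 arrays were raised and every SP-D-/- array was under the filter level. In air the mean was 4.87 ± 1.72 in 5 SP-D-/- lungs, where replicates 3 and 4 were raised, and 3.12 ± 0.32 in 6 C57BL/6 lungs. The difference between strains was -2.81 ± 0.66 at 168 h and 1.75 in air, a change of -4.55 ± 0.89 (adjusted p = 0.0360). It rested on few arrays, and leaving out any SP-D-/- array at 168 h, or C57BL/6 replicate 3, 4 or 6, left no gene called.

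Liver-type plasma protein genes, whose median strain difference was 1.63 in air, had a median of -0.04 at 168 h with air, or -0.01 without C57BL/6 replicate 4. Their mean was 4.53 to 4.75 in SP-D-/- and 4.44 to 5.11 in C57BL/6 at 168 h, with Alb at 4.52 ± 0.27 and 4.71 ± 0.51, near the filter level in both. Acute phase and metallothionein genes were higher in 8 of 11 cases with a median of 0.47, close to 0.49 in air. Saa3, an acute phase apolipoprotein made in the lung, averaged 8.99 ± 0.89 in SP-D-/- and 9.12 ± 1.12 in C57BL/6.

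Against Af 168 h with ozone, the strain difference differed in 6 genes, 0.0398% of those tested, with 925 (6.14%) at an unadjusted p under 0.05. Efcab10, an EF-hand protein gene, averaged 6.82 ± 0.48 in SP-D-/- and 5.50 ± 0.62 in C57BL/6 with air, and 5.50 ± 0.50 and 6.53 ± 0.73 with ozone. The direction thus turned, and the change was 2.36 ± 0.44 (limma, adjusted p = 0.00607). Tmem35a, a chaperone of nicotinic receptors, went the same way, with 4.90 ± 0.44 in SP-D-/- and 4.15 ± 0.45 in C57BL/6 with air and 3.55 ± 0.13 and 5.44 ± 1.04 with ozone (2.64 ± 0.50, 0.00607). Atp6v1b1, a subunit of the vacuolar proton pump, averaged 4.71 ± 0.45 in SP-D-/- and 3.64 ± 0.43 in C57BL/6 with air and 2.88 ± 0.18 and 3.98 ± 1.28 with ozone (2.16 ± 0.46, 0.0282). The Atp6v1b1 means other than 4.71, and the Tmem35a means of 4.15 and 3.55, lay under the filter level of 4.45. The size of the change in both genes is therefore approximate. AU021092, which the naming rule passed over and which was chosen after its values were seen, changed by 2.19 ± 0.41 (adjusted p = 0.00607).

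Igkv14-111, above, was the fifth gene, and Car3, a carbonic anhydrase abundant in fat and muscle, was the sixth. With air Car3 gave 4.31, 7.88, 4.92, 4.71 and 7.58 in SP-D-/- and 7.98, 4.10, 9.20 and 8.61 in C57BL/6, and the groups overlapped widely. With ozone at 168 h it averaged 9.93 ± 0.65 in SP-D-/- and 5.77 ± 1.14 in C57BL/6, so the change of -5.75 ± 1.22 (limma, adjusted p = 0.0282) arose mostly from the ozone arrays. These values came from 1 probe set, and the other Car3 probe sets differed by 0.65, 0.82 and -0.24 with air. Over the alternatives the change in Car3 ran from -6.88 to -1.76. Fat genes had a median strain difference of 1.67 and skeletal muscle genes of 2.64 at Af 168 h with ozone, against -0.57 and -0.35 with air. The part of fat and muscle in the sampled tissue in this change was not tested. Without C57BL/6 replicate 6 none of the 6 genes passed, and without C57BL/6 replicate 4 only AU021092, Efcab10 and Tmem35a did. With the 4 compared groups fitted alone none of the 6 passed, and 6 other genes did, all lower: the skeletal muscle genes Acta1, Myh1, Myh8, Tnnc2, Tnni2 and Tnnt3, named after their values were seen.

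**Figure D5:**
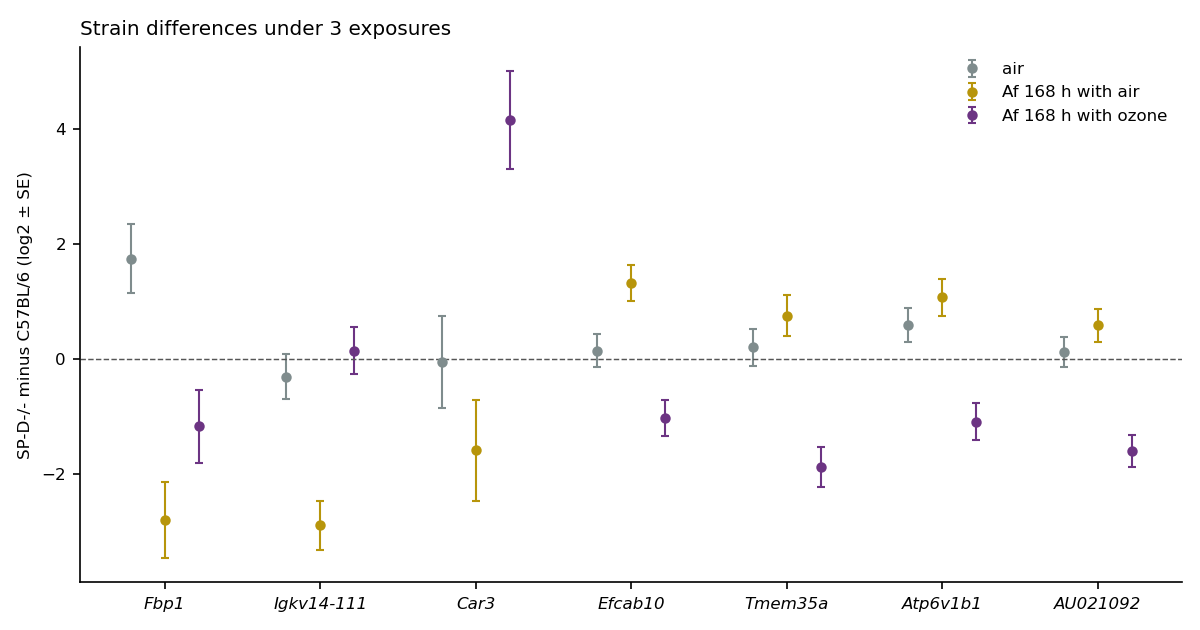
Strain difference, SP-D-/- minus C57BL/6 ± SE (log2), in air, at Af 168 h with air and at Af 168 h with ozone for the 7 genes whose difference changed between exposures. Fbp1 and Igkv14-111 are lowest at Af 168 h with air (-2.81 and -2.90), and Car3 is lower with air (-1.59) than with ozone (4.16).

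The number of genes called between the strains varied with the exposure. It was 10 in air (0.0664% of genes), 120 with ozone alone (0.797%), 13 at Af 24 h with air (0.0863%), 2435 at Af 96 h with ozone (16.2%, or 3277 and 21.8% without the doubted libraries), 3 at Af 168 h with air and 76 at Af 168 h with ozone (0.504%). The naming rule had taken 10 higher and 10 lower genes at 168 h with air by p-value. Of the 10 higher genes, 9 were higher in SP-D-/- in air, 3 with ozone alone, 5 at Af 24 h, 7 at Af 96 h with ozone and 7 at Af 168 h with ozone. Of the 10 lower genes, 6, 6, 4, 3 and 8 were lower under those exposures in the same order. Without the doubted libraries the Af 96 h counts were 6 and 4. Over all genes, the share higher in SP-D-/- was 55.0% in air, 45.1% with ozone alone, 53.7% at Af 24 h, 55.8% at Af 96 h with ozone and 44.7% at Af 168 h with ozone. Across 15065 genes, which are not independent, the strain differences at 168 h with air correlated with those under the other exposures at r = -0.0397 in air, 0.353 with ozone alone, -0.25 at Af 24 h, -0.433 at Af 96 h with ozone (-0.427 without the doubted libraries) and 0.242 at Af 168 h with ozone. No arrays are shared between these differences, but the counts called rest on a spread pooled over all groups.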

How the data were processed

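Lung RNA of 89 samples in 18 groups of strain and exposure was measured, each on an HT Mouse430PM array, after NuGEN amplification, per the labels' protocols. The deposited values are log2 signals per probe set, and no label or header names the authors' software. The deposited log2 values run from 1.86 to 13.5 with the same median on every array, so they were normalized between arrays before deposit and were used as they stand.

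Of 45141 probe sets, 104 were controls and 28898 had 1 gene symbol in the platform annotation, 551 several and 15588 none. The probe set with the highest mean stood for each of 17097 genes, 7180 of which had more than 1. Genes were kept above the 40th percentile of all values (4.45) on at least 4 arrays, which left 15065. Group means over all 89 arrays were fitted with limma 3.58.1 in R 4.3.3 (plain eBayes, two-sided, Benjamini-Hochberg over 15065 genes, threshold 0.05), and differences between strain differences came from the same fit. The steps were tested on simulated data.

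The rule named Sftpd, up to 15 called genes in each direction, filled to 10 by the smallest p, up to 3 called genes or else the 2 smallest p-values in each of 41 gene lists, and up to 5 called interaction genes in each direction. Fixed cell type markers are named too. Muc16, Abcg1, Il13, Saa3, Dydc2, Mbl1 and AU021092 lie outside the rule and were chosen after their values were seen. The gene lists and the comparison itself were chosen with earlier results of these data known. Alternatives changed the normalization, probe set choice, filter, arrays fitted, covariates, array weights, variance prior and replicate block, and left out each array in turn. Fits of Af 96 h without the doubted libraries, and list medians without C57BL/6 replicate 4, were chosen after seeing the data.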

Additional observations from a re-analysis of the deposited data

Results flagged for a closer look

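Single arrays stood apart from the rest of their group in 9 of 206 sets of values scanned, and chance marks about 1 set in 20. Agr2 was 7.12 on SP-D-/- replicate 5, against 8.53 to 9.07 on the other SP-D-/- arrays, and Pigr was 8.04 on SP-D-/- replicate 2, against 8.80 to 8.83. On C57BL/6 replicate 4 the chemokine gene Ccl12 was 3.80, against 5.38 to 5.49, and the gelatinase gene Mmp9 was 4.26, against 5.82 to 6.10. On C57BL/6 replicate 2 the cornified envelope gene Sprr1a was 5.31, against 6.05 to 6.17, and the prostaglandin synthase gene Ptges was 7.62, against 8.59 to 8.72. The skeletal myosin gene Myh2 was 6.23 on C57BL/6 replicate 6, against 3.41 to 3.84. The 3' minus 5' actin difference was 3.74 on SP-D-/- replicate 5, against 2.12 to 2.43, and 3.22 on C57BL/6 replicate 6, against 2.27 to 2.41.

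The strain difference itself changed with exposure in 7 genes by limma's test of that change. From air alone to Af 168 h with air it changed by -4.55 in Fbp1. Between Af 168 h with air and with ozone it changed by 2.16 in Atp6v1b1, 2.19 in AU021092, -5.75 in Car3, 2.36 in Efcab10, -3.04 in Igkv14-111 and 2.64 in Tmem35a.

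Probe sets with no gene name here also passed when every probe set was fitted. Probe set 1438364_PM_x_at was higher by 2.10 (6.08 in SP-D-/- and 3.98 in C57BL/6). Probe sets 1451965_PM_at, 1427503_PM_at and 1421802_PM_at were lower, by -1.85 (3.95 and 5.79), -2.68 (4.99 and 7.67) and -3.03 (3.98 and 7.00). Values of 1427503_PM_at overlapped between the strains, from 4.39 to 5.91 in SP-D-/- and from 4.35 to 10.09 in C57BL/6. For 1438364_PM_x_at the C57BL/6 mean, and for 1451965_PM_at and 1421802_PM_at the SP-D-/- mean, fell below the 4.45 used as a filter. Differences of these probe sets are therefore approximate in size.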

How the results depend on the processing

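The count of 3 genes between the strains at Af 168 h with air was 1 (Sftpd) with the 9 arrays fitted alone, 5 with hybridization control level as a covariate, 6 with that covariate and without the 5 doubted arrays, 324 with array weights (226 higher, 98 lower) and 3 to 8 on leaving out 1 array, 8 without C57BL/6 replicate 4. Array weights ran from 0.240 on SP-D-/- replicate 6 to 7.75 on C57BL/6 replicate 3, so that fit leaned on few arrays. With every probe set fitted on its own, an alternative chosen after seeing the data, 7 of 36800 passed. The count against air alone, 1 gene, was 0 with cyclic loess, with the compared groups alone and with the actin difference as a covariate, 37 with array weights and 0 to 2 on leaving out 1 array, 2 without C57BL/6 replicate 2. The count against Af 168 h with ozone, 6 genes, was 10 with the control level covariate without the doubted arrays, 103 with array weights and 0 to 8 on leaving out 1 array. With the compared groups alone it was again 6, but 0 higher and 6 lower, against 4 and 2, and 0 of those genes were shared. Replicate numbers did not pair the arrays: same-number deviations correlated at -0.31 to 0.42, and 1 of 4 pairs exceeded 0.1. With the replicate block limma called 0 genes in all 3 counts (505 at an unadjusted p under 0.05 between the strains), and the Sftpd difference was -3.64 with an adjusted p of 0.200. Under the other alternatives Sftpd kept its call, at -3.79 to -3.09. Signs turned, in genes that never passed, with array weights for Alox15 (0.056), Itgae (-0.0020), Mcm3 (0.058), Ryr2 (0.64) and Eno3 (0.28), with the control level covariate for Ccl12 (0.073, or 0.020 without the doubted arrays) and without C57BL/6 replicate 4 for Ryr2 (0.19, with -1.17 the lowest on leaving out 1 array). Some list medians turned sign too. Among those negative in the main fit, the highest value was 0.080 for alternatively activated macrophage genes and 0.15 for collagen and matrix genes. For MHC class II, unfolded protein response and complement genes it was 0.0038, 0.12 and 0.23. The cause of these turns was not tested. Signal near the filter level limits the size of low differences.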
